A study of Ichthyophis bannanicus with 29 samples.

Results

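Skin and stomach of *Ichthyophis bannanicus*, a limbless burrowing amphibian of the caecilian order, were compared by sequencing of messenger RNA. The comparison rests on 6 of the series' 29 libraries, 3 of skin and 3 of stomach, taken by the tissue named in the sample labels. Of the 53113 assembled genes in the deposited table, 33424 were at a level of at least 1 TPM (transcripts per 1000000) in at least 2 of these 6 libraries and were tested, and 19689 did not. The labels give the tissue and a replicate number from 1 to 3 for each library. Age, sex, season, treatment and the number of animals are not given there, nor whether replicates are separate animals. The p-values therefore reflect the variation among these libraries alone, part of which may be technical.

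Both tissues are glandular epithelia on connective tissue, one facing the outside and one the gut lumen. Amphibian skin is a stratified, thinly keratinised epidermis over a dermis packed with mucous glands, which keep the surface moist, and granular glands, which secrete defensive compounds. The stomach wall has a mucus-secreting surface epithelium, gastric glands that release acid and pepsinogen, and thick layers of smooth muscle. Secretory tissues of this kind typically devote much of their messenger RNA to a few secreted products.

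The genes are known only by the IDs of a transcriptome assembly, which the table does not pair with names. The tissue labels could therefore not be checked against defining markers, and no gene is given a function. Genes are described by their rank in abundance, with at most 2 IDs per direction. Assembly can break a gene into pieces or merge near-identical copies, so counts are of assembled sequences. As TPM sums to a fixed total in each library, it keeps no sequencing depth, and a gene that takes a large share lowers the values of all others. In bulk tissue, fewer cells of a type and less RNA per cell cannot be told apart.

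The 6 libraries fell apart by tissue. The Pearson r of log2(TPM + 1) across all genes was 0.915 to 0.930 between skin libraries, 0.825 to 0.839 between stomach libraries and 0.688 to 0.699 between a skin and a stomach library. Spearman's rho gave the same order, with ranges of 0.870 to 0.886, 0.751 to 0.775 and 0.661 to 0.690. These values describe pairs of libraries across genes, which are not independent replicates. The median SD of log2(TPM + 1) over the 3 libraries was 0.25 in skin and 0.30 in stomach for the 17486 genes at 1 TPM or more in each of the 6 libraries.

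Stomach RNA was concentrated in fewer genes than skin RNA. Each library's 10 leading genes accounted for 17.1%, 19.8% and 27.4% of TPM in skin replicates 1 to 3, and 41.4%, 42.5% and 33.9% in stomach replicates 1 to 3. Every stomach library thus lay above every skin library, with means of 39.3% ± 4.72 and 21.4% ± 5.30 (SD, n = 3 each). The number of genes needed to reach 50% of TPM also differed: it was 227, 195 and 116 in the skin libraries, against 27, 23 and 67 in the stomach libraries. Skin replicate 3 and stomach replicate 3 were each the library of their tissue nearest to the other tissue in this measure. The single most abundant gene did not separate the tissues, as it took 5.34% to 13.9% of TPM in skin and 8.43% to 13.5% in stomach. A two-sided exact permutation test over libraries gave p = 0.1 for the share of the 10 leading genes and for the number of genes making up 50% of TPM, the smallest p that 3 against 3 libraries allow, and 0.14 after Benjamini-Hochberg adjustment over 14 such measures.

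**Figure D1:**
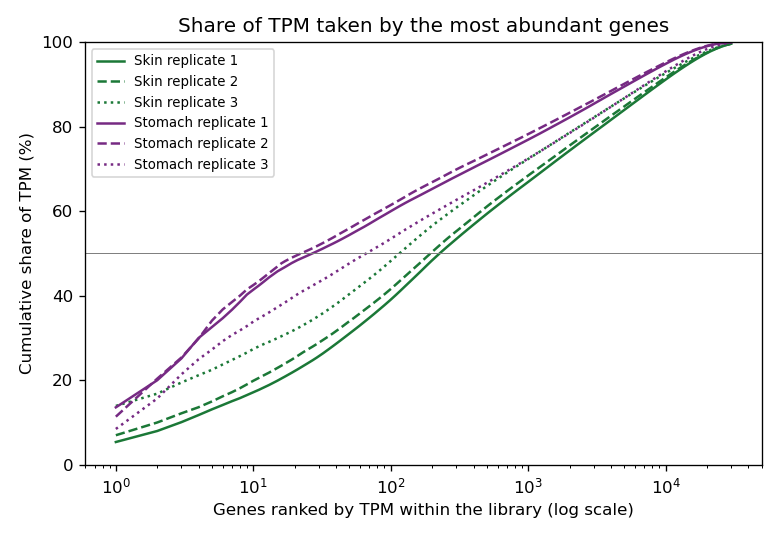
Cumulative share of TPM (%) against the rank of genes by TPM within each library (log scale), 1 line per library, with skin in green and stomach in purple. The curves of the 3 stomach libraries lie above those of the 3 skin libraries from rank 10 to rank 1000, and they cross 50% at 23 to 67 genes against 116 to 227 in skin.

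In TPM as deposited, more genes reached 1 TPM in the skin libraries than in the stomach libraries. Skin libraries had 30326, 30104 and 29613 genes at 1 TPM or more, and stomach libraries had 24033, 23542 and 26937. The groups did not overlap, with means of 30014 ± 365 and 24837 ± 1835 (SD, n = 3 each; two-sided exact permutation p = 0.1). Genes listed at 0 numbered 16722 to 16897 in skin and 18970 to 21963 in stomach. Depth is unknown, but low values carry a trace of it, since equal numbers of reads on a gene give 1 fixed ratio between 2 libraries for all genes. Among genes above 0 and under 1 TPM in both libraries, the most common ratio of a skin to a stomach value was 1.19 to 1.40 over the 9 pairs of a skin and a stomach library. It was 0.999 to 1.02 between skin libraries and 0.971 to 1.15 between stomach libraries. For a skin and a stomach library it was shared by only 70 to 115 of 3147 to 3406 such genes. Where it stems from equal numbers of reads, a ratio above 1 means more TPM per read in skin. As TPM also corrects for sequence length, such a ratio is not a measure of depth alone. The part of depth in the number of genes at 1 TPM was not tested.

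The 10 most abundant genes of skin fell into 6 that were at 10.5 TPM or less in every stomach library and 4 that were abundant in both tissues. The leading skin gene, TRINITY_DN29415_c0_g2, was at 53388, 69430 and 138847 TPM in skin replicates 1 to 3 and at 0.0327, 0.157 and 0.438 TPM in stomach replicates 1 to 3. It was high in every skin library, most of all in replicate 3, and near 0 in every stomach library. In limma the difference was 16.03 ± 0.36 log2 units (SE; adjusted p = 5.63e-06 by Benjamini-Hochberg). The gene ranked 2nd was at 20959, 30187 and 29131 TPM in skin and at most 0.0337 TPM in stomach. Those ranked 5th and 6th averaged 12789 ± 2088 and 10390 ± 1908 TPM in skin (SD, n = 3 each) and reached at most 10.5 and 4.51 TPM in stomach, both in replicate 3, while replicate 2 was listed at 0. Those ranked 7th and 8th were listed at 0 in all 3 stomach libraries. They moved together over the skin libraries, at 7308, 9383 and 12929 TPM for the former and 7267, 9145 and 12730 TPM for the latter, and both were highest in replicate 3.

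The 10 most abundant genes of stomach showed the same kind of split, with larger differences among the replicates. Of these, 9 were called higher in stomach, and the 1 not called was shared with skin's list. TRINITY_DN7584_c0_g1, the leading stomach gene, was at 135490, 113402 and 72182 TPM in stomach replicates 1 to 3 and at 0.326, 0.313 and 0.0401 TPM in skin. Skin minus stomach, it differed by -16.37 ± 0.25 log2 units in limma (SE; adjusted p = 2.50e-06 by Benjamini-Hochberg). The gene ranked 7th was at 18721, 26770 and 22949 TPM in stomach and was listed at 0 in all 3 skin libraries. It was the steadiest over the stomach libraries among those near absent from skin, with a ratio of highest to lowest of 1.43.

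Stomach replicate 3 held a different balance of these genes. The gene ranked 4th was at 51760 and 90081 TPM in stomach replicates 1 and 2 but at 6716 TPM in replicate 3, a ratio of highest to lowest of 13.4. The gene ranked 5th went the same way, at 25871, 50063 and 10861 TPM. TRINITY_DN11110_c1_g1, ranked 2nd, went the other way, at 64233, 42361 and 84305 TPM. Even the lowest of these values lay far above every skin library, where the 3 genes reached at most 0.940, 1.97 and 10.6 TPM. In skin the corresponding ratio was at most 2.60 among the 10 leading genes, for the leading gene. Over the 100 most abundant genes of each tissue the ratio had a median of 1.33 in stomach and 1.37 in skin, and exceeded 3 for 7 and 8 genes, so the large differences were a matter of a few genes in both tissues.

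**Figure D2:**
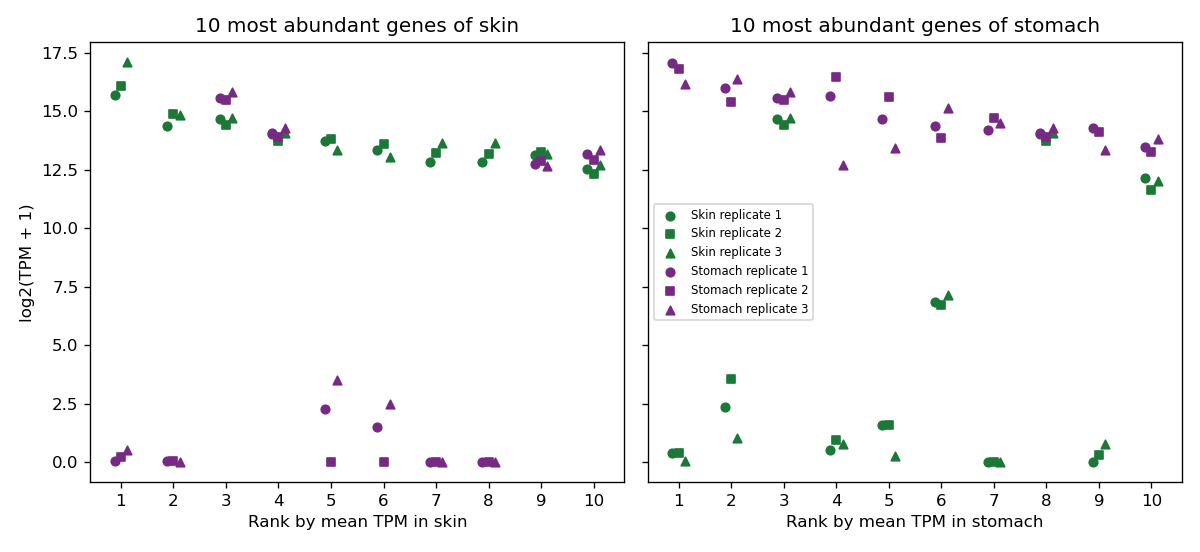
Values in each library, as log2(TPM + 1), of the 10 most abundant genes of skin (left) and of stomach (right), ranked by mean TPM in that tissue. Skin libraries are green and stomach libraries purple, with a marker shape per replicate. In the left panel 6 genes are at 10.5 TPM or less in every stomach library and 4 are at 6384 TPM or more there, and in the right panel the gene ranked 4th is spread from 6716 to 90081 TPM over the stomach libraries.

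The lists shared 2 of their 10 genes, and the lists of the 100 most abundant shared 38. Overlaps for other pairs of tissues were not computed. Both shared leading genes came from 1 component of the assembly, a group of sequences that the assembler linked and that can be copies or pieces of 1 gene, so reads may be split between them. They were described after their values were seen. The former, ranked 3rd in both tissues, was at 26095, 21762 and 26413 TPM in skin and 48338, 44932 and 57167 TPM in stomach, a difference of -1.02 ± 0.13 log2 units in limma (SE; adjusted p = 0.00262 by Benjamini-Hochberg) that lay at the limit of 1 used for calls. The latter was at 16812, 13680 and 17201 TPM in skin and 17319, 15031 and 20070 TPM in stomach, a difference of -0.13 ± 0.14 log2 units in limma (SE; adjusted p = 0.537). After the scaling described below, the differences were -1.41 for the former and -0.53 for the latter (adjusted p = 0.00242 and 0.0692 in limma). The ratio of the former to the latter was 1.55, 1.59 and 1.54 in the skin libraries and 2.79, 2.99 and 2.85 in the stomach libraries. This ratio does not depend on the scaling of a library, and the tissues did not overlap in it. In the other tissues it averaged from 1.51 ± 0.030 in spleen to 2.64 ± 0.15 in lung (SD, n = 3 each), with 1.54 ± 0.043 in blood (SD, n = 3). Stomach had the highest mean, but single libraries of testis and lung reached 2.84 and 2.82, within the range of stomach. Summed, the 2 genes averaged 4.07% of TPM in skin and 6.76% in stomach. In the other tissues the sum averaged from 5.12% in testis to 27.1% in blood. The abundance of this pair was thus not particular to skin and stomach.

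The remaining skin leaders were also abundant in stomach. The gene ranked 9th in skin was at 8925, 9723 and 9275 TPM there and at 6790, 7370 and 6384 TPM in stomach. Its log2 difference was 0.44 as deposited and 0.05 after the scaling described below. The gene ranked 10th was at 5936, 5034 and 6556 TPM in skin and 9197, 7792 and 10314 TPM in stomach, with a log2 difference of -0.64 as deposited and -1.04 after scaling. Among the stomach leaders, the gene ranked 6th was present in skin at 103 to 142 TPM against 14978 to 35755 TPM in stomach, and was higher still in spleen replicate 3, at 148535 TPM. The gene ranked 10th was at 4474, 3146 and 4081 TPM in skin and 11381, 9618 and 14553 TPM in stomach.

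Across all genes tested, skin had many more genes higher than stomach in TPM as deposited. In limma on log2(TPM + 1), a gene was called when its Benjamini-Hochberg adjusted p was under 0.05 and the tissues differed by at least 1 log2 unit. By this rule 5993 genes (17.9%) were higher in skin and 1906 (5.70%) were higher in stomach. In all, 7899 genes (23.6%) were called, 75.9% of them higher in skin. The skin libraries lay wholly above the stomach libraries for 11207 genes (33.5%) and wholly below them for 3819 (11.4%), called or not. The called genes had no overlap between the 3 skin and the 3 stomach libraries. At the other end, 6501 genes (19.5%) had a 95% interval of the log2 difference that lay within -1 to 1.

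As deposited, the median sizes of the called differences were alike in both directions, while the numbers were not. The median log2 difference was 1.89 for genes higher in skin and -1.98 for genes higher in stomach, against 0.39 over all genes tested. A log2 difference of 4 or more was seen for 573 of the 5993 genes higher in skin and 244 of the 1906 higher in stomach. One of 8 or more was seen for 102 and 46. Both were larger shares of the genes higher in stomach. A gene could pass the filter on low values through its level in 1 tissue alone. Among the 17486 genes at 1 TPM or more in each of the 6 libraries, 2283 (13.1%) were higher in skin and 949 (5.43%) in stomach. In this group the largest difference towards skin belonged to TRINITY_DN319_c1_g1, at 1214, 1504 and 3159 TPM in skin replicates 1 to 3 and 1.68, 1.90 and 1.29 TPM in stomach. The limma estimate was 9.42 ± 0.37 log2 units (SE; adjusted p = 3.63e-05 by Benjamini-Hochberg), and outside skin it was highest in ovary replicate 1, at 97.3 TPM. Towards stomach it was TRINITY_DN11110_c1_g1, whose skin values were 4.07, 10.6 and 1.07 TPM, and the limma estimate was -13.59 ± 0.63 log2 units (SE; adjusted p = 7.30e-05 by Benjamini-Hochberg).

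**Figure D3:**
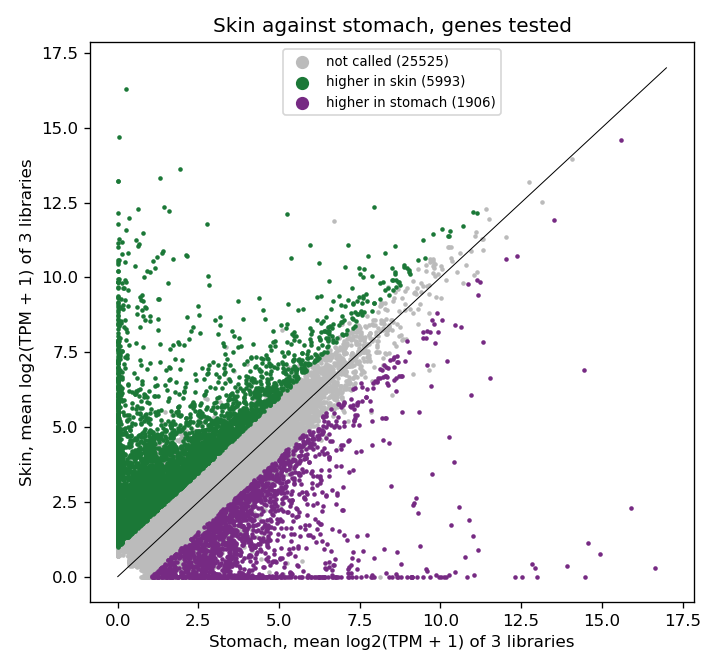
Mean log2(TPM + 1) over 3 skin libraries (y axis) against 3 stomach libraries (x axis) for the 33424 genes tested, in TPM as deposited, with the 5993 genes higher in skin in green, the 1906 higher in stomach in purple and those not called in grey. The line marks equal levels. The few genes along the lower and left edges up to the highest levels are those near absent from 1 tissue.

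The split of calls depended on how the libraries were put on 1 scale. The genes at 1 TPM or more in each of the 6 libraries had a median log2 difference of 0.24 towards skin as deposited. Dividing each library by its median-of-ratios factor moved this median by -0.33, to -0.09. With that scaling 4417 genes (13.2%) were higher in skin and 2874 (8.60%) higher in stomach, so that 60.6% of the calls were higher in skin. Removing the 10 most abundant genes of each library, 22 genes in all, and rescaling the rest to the full total gave nearly the same split, with 4637 genes higher in skin and 2972 higher in stomach (60.9%). What the removed genes held differed by tissue, as 71.0% to 81.0% of TPM was left in the skin libraries and 55.0% to 64.1% in the stomach libraries. No gene called as deposited was called in the opposite direction under either scaling. Median shifts of -0.33 and -0.34 log2 units were too small for that, as a call needed at least 1 log2 unit. The absence of turned calls is thus no separate support.

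Genes higher in skin were in excess at every level as deposited, but only under 5 TPM after median-of-ratios scaling. A gene's level was taken over all 6 libraries, as the mean of log2(TPM + 1) turned back into TPM. A gene near absent from 1 tissue can thus stand in a lower class than its level in the other tissue. The classes are therefore not levels within skin or within stomach. The highest class, at 1000 TPM or more, held only 56 genes. As deposited, genes higher in skin outnumbered those higher in stomach in each of 6 level classes, from 668 against 98 under 1 TPM to 11 against 9 at 1000 TPM or more. After median-of-ratios scaling the skin genes led under 1 TPM, with 560 against 126, and from 1 to 5 TPM, with 2380 against 1100. From 5 TPM upward the larger side turned, with 974 against 1070 from 5 to 20 TPM, 398 against 447 from 20 to 100 TPM, 101 against 117 from 100 to 1000 TPM and 4 against 14 above that. The share of genes higher in stomach was larger in each higher class on either scale, from 2.19% to 16.1% as deposited and from 2.82% to 25.0% after scaling.

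**Figure D4:**
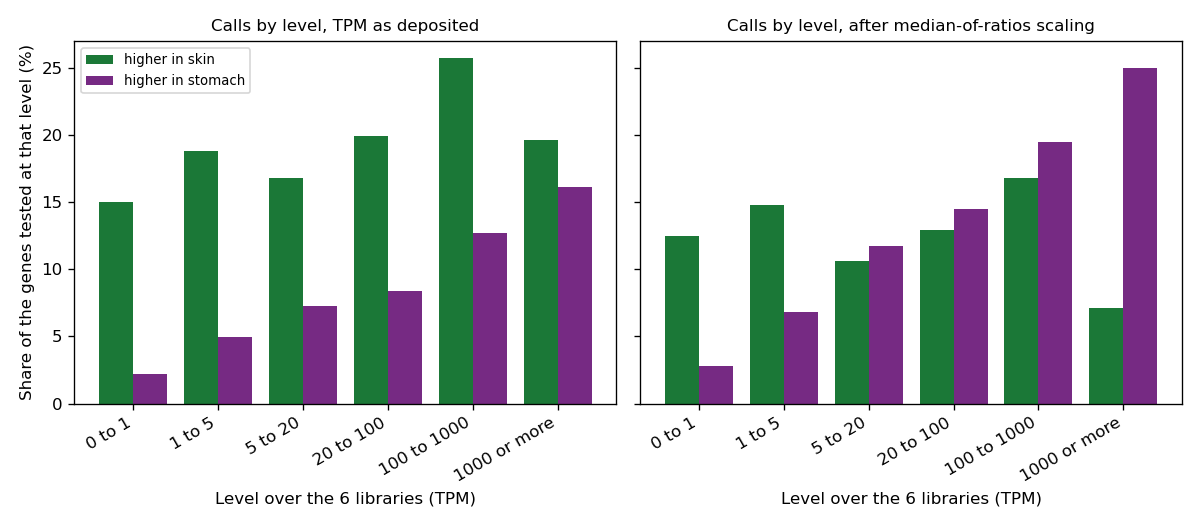
Share of the genes tested (%) that were called higher in skin (green) or in stomach (purple), by level over the 6 libraries, for TPM as deposited (left) and after median-of-ratios scaling (right). Green bars are taller in all 6 classes on the left, and purple bars are taller from 5 TPM upward on the right.

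The genes called higher in each tissue as deposited held about the same share of that tissue's TPM. Genes higher in skin took 51.5%, 53.7% and 56.3% of TPM in skin replicates 1 to 3 and 5.25% to 6.46% in the stomach libraries. Genes higher in stomach, though fewer, took 57.6%, 60.1% and 49.9% in stomach replicates 1 to 3 and 5.15% to 5.64% in the skin libraries. Genes called in neither direction held 37.9% to 42.4% in skin and 34.2% to 42.6% in stomach. These shares describe the genes chosen by the same values and carry no test. They were not computed for the calls made after scaling.

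In TPM as deposited, genes present in 1 tissue and near absent from the other were more numerous on the skin side. At 1 TPM or more in every skin library and under 0.1 TPM in every stomach library were 1599 genes, 6.32% of those at this level in all skin libraries. The reverse held for 299 genes, 1.54% of those at this level in all stomach libraries, and for 468 when stomach replicate 1 was left out. Leaving out a library can only add such genes, and without the same library the skin side numbered 1980. All 3 stomach libraries listed 1437 of the former at 0, and all 3 skin libraries listed 250 of the latter at 0. Over all genes, the stomach libraries also listed more at 0, with 18970 to 21963 against 16722 to 16897 in skin. The limits of 1 and 0.1 TPM were not applied to rescaled values. The 1599 skin genes were lower, with a median of 6.22 TPM against 13.0 TPM for the 299 stomach genes. Of the skin genes 17 averaged 1000 TPM or more, and of the stomach genes 9, which is a larger share. Together the skin genes took 10.9% to 11.4% of TPM in skin, and the stomach genes 6.02% to 7.67% in stomach.

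These near-absent genes differed in how far they reached into the other 8 tissues. Of the 1599 skin genes, 771 averaged at least 1 TPM in 4 or more of the other 8 tissues, and 319 were under 1 TPM in all of them. Of the 299 stomach genes, 42 reached at least 4 of the other tissues and 123 were under 1 TPM in all. The skin side thus often held genes near absent from stomach and at 1 TPM or more in 4 or more other tissues. How often all genes present in skin or in stomach reach that many tissues was not computed. Wide presence is therefore not shown to be particular to these genes. By contrast, 230 of the 299 stomach genes had their highest mean of all 10 tissues in stomach, against 646 of the 1599 in skin.

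The same contrast ran through all called genes, with tissues ranked by mean TPM as deposited. Of the 5993 genes higher in skin, 1642 (27.4%) had their highest mean of the 10 tissues in skin, with 13.2% highest in heart, 12.6% in ovary and 12.5% in testis. Of the 1906 genes higher in stomach, 930 (48.8%) were highest in stomach, with 12.4% highest in testis, 9.23% in lung and 8.76% in ovary. Over all genes tested, 7.19% were highest in skin, 6.84% in stomach, 20.9% in testis, 18.8% in ovary, 10.5% in heart and 8.66% in lung. Spleen was highest for 8.48% of the genes higher in skin and 1.36% of those higher in stomach, against 3.85% of all genes tested. Testis and ovary held smaller shares of the called genes than of all genes tested. The large share of the chosen tissue itself leaves less for every other tissue, so this is not shown to be particular to testis and ovary. For 3330 genes higher in skin (55.6%), stomach had the lowest mean of the 10 tissues or tied for it, against 23.8% of all genes tested. For 442 genes higher in stomach (23.2%), skin was lowest or tied, against 4.89% of all genes tested. A choice by skin and stomach values favours such positions, so these shares are given without a test. With median-of-ratios scaling of all libraries, the share of called genes highest in their own tissue was 29.2% for skin and 64.7% for stomach.

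**Figure D5:**
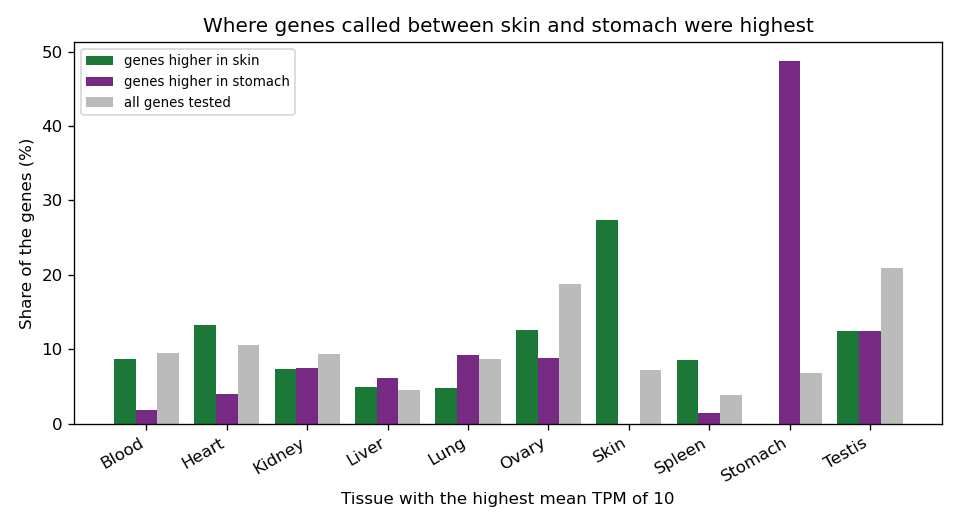
Share of genes (%) by the tissue with the highest mean TPM of 10, in TPM as deposited, for genes higher in skin (green), genes higher in stomach (purple) and all genes tested (grey). Of the stomach genes 48.8% are highest in stomach, whereas 27.4% of the skin genes are highest in skin and the rest are spread over the other tissues.

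Read against the other tissues, kidney, heart and testis lay nearer to skin for most genes higher in skin, and the other 5 tissues did not. On log2(mean TPM + 1), kidney was nearer to skin than to stomach for 63.3% of them, heart for 62.3% and testis for 61.3%, against 49.9% for spleen, 46.3% for ovary, 43.7% for liver, 43.0% for lung and 41.5% for blood. For genes higher in stomach, every other tissue was nearer to skin for most genes, from 55.2% in lung, 55.3% in testis and 56.8% in kidney up to 86.7% in spleen and 89.9% in blood. The median log2 level of the stomach genes was 3.97 in stomach and 1.41 in skin. It lay below skin in blood (0.479) and spleen (1.34). In the other tissues it lay between skin and stomach, with 2.69 in kidney and 2.62 in lung. Both sets were chosen by their skin and stomach values, which can by itself place a further tissue nearer to the lower side. Shares over all genes tested were not computed, so these figures do not measure likeness between tissues.

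Called genes of 1 assembly component went the same way in some components and opposite ways in others. Of the 3374 components with 2 or more tested genes, 362 had 2 or more called genes, all higher in skin in 253 and all higher in stomach in 37, where 75.9% of all calls were higher in skin. The remaining 72 components (19.9%) held called genes of both directions, and in 20 of them a gene of each direction averaged 10 TPM or more in its tissue. The share that unrelated called genes would give was not computed, so 19.9% is not shown to be high. The component with the highest levels on both sides paired a gene at 331, 326 and 449 TPM in skin and 117, 99.4 and 151 TPM in stomach with one at 343, 300 and 231 TPM in skin and 739, 893 and 835 TPM in stomach. The next paired a gene at 233, 187 and 210 TPM in skin and 96.0, 71.5 and 105 TPM in stomach with one at 11.5, 9.83 and 19.9 TPM in skin and 1083, 1497 and 1597 TPM in stomach. In both components the libraries of skin and stomach did not overlap for either gene, which held for every called gene and adds nothing for these pairs. Whether such pairs are gene copies, alternative ends or fragments was not tested.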

How the data were processed

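The authors deposited 1 table of TPM per assembled gene, per the file headers, with 1 column for each of 29 libraries, and all columns matched a sample label by name. Poly-A selection and NEBNext library preparation are given in the labels' protocols. For the assembler, quantifier, versions and filters, the entry is: not given in the sources used here. Genes that reached 1 TPM in at least 2 of the 6 skin and stomach libraries were tested on log2(TPM + 1), a scale that understates changes of low genes, with limma 3.58.1 in R 4.3.3, using a mean per tissue, these 6 libraries and an intensity trend. P-values were adjusted over all 33424 genes. No value above 0 was exactly equal between any of these libraries, so each counted once. Named IDs were, per direction, the called gene without overlap of largest log2 difference, over all genes and over those at 1 TPM or more in all 6 libraries. Marker lists matched 0 IDs. The calling step was tested only on simulated independent normal noise with added differences. That does not test how scaling or values of 0 affect the calls. Groups, lists and tests were chosen with earlier results of these data known. Summaries were made with scipy 1.17.1, numpy 2.4.6 and pandas 2.3.3 under Python 3.11.15, and figures with matplotlib 3.10.9. Alternatives were another pseudocount, filter, scaling and set of libraries, no trend, a replicate block and each library left out. Depth and counting error are unknown.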

Additional observations from a re-analysis of the deposited data

How the results depend on the processing

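The named genes kept their direction and their call in every alternative in which they could be fitted (13 or 14 each), with adjusted p of at most 0.00169 in limma. They were chosen for the largest differences, far beyond the limit of 1 log2 unit, so this does not speak for the other calls. With 5 TPM or more required in at least 3 libraries, 3597 genes were higher in skin, from 15738 tested. Genes higher in stomach numbered 2874 after median-of-ratios scaling and 2972 without the 10 most abundant genes of each library. Leaving out each library in turn gave 4852 to 6315 genes higher in skin and 1489 to 1958 higher in stomach. With all 29 libraries in the fit the numbers were 5014 and 1860. Same-numbered skin and stomach libraries deviated from their tissue means with r of 0.005 to 0.014, so the numbers were not taken to pair them, although 5 of the 6 libraries correlated best with their own number. With the replicate block the calls were 4335 higher in skin and 1453 higher in stomach. The 100 most abundant genes held 43.0% of TPM in skin and 58.3% in stomach. With 5 TPM in place of 1 TPM, 542 genes were near absent from stomach and 174 from skin. At 1 TPM, 299 genes were near absent from skin and 1599 from stomach. Leaving out each library in turn gave 353 to 468 and 1926 to 2296. As a gene must meet the limits in every library, leaving 1 out can only add genes. A higher limit for presence can only remove them. Scaling all libraries by median-of-ratios raised the share of called genes highest in their own tissue to 29.2% for skin and 64.7% for stomach. The cause of the other shifts was not tested. Depth is unknown, which limits what values of 0 can show.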

Other observations

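Among the 100 most abundant genes of skin, 41 were called higher in skin and had their highest mean there, and 43 stomach genes met the same terms for stomach. The low values of these genes in other libraries were not even. Skin genes were at a median of 0% to 0.021% of their skin mean in the stomach libraries, where 13 to 23 of the 41 were listed at 0. In the 3 spleen libraries the medians were 0.274%, 0.210% and 0.168%, and none of the 41 was listed at 0. In the 3 blood libraries they were 0.130%, 0.118% and 0.0942%. Stomach genes were at a median of 0.025% to 0.056% of their stomach mean in the skin libraries, with 9 to 12 of the 43 listed at 0. In lung the medians were 0.0463%, 0.267% and 0.635% in replicates 1 to 3, and 0.0969% in testis replicate 3. Summed TPM gave another order. The 43 stomach genes together took 1.892%, 1.442% and 1.272% of TPM in lung replicates 1 to 3 and 1.615% in testis replicate 3. In the skin libraries they took 0.62% to 0.77%. The 41 skin genes took 0.56% to 0.65% in the heart libraries and 0.24% to 0.44% in the spleen libraries. In the stomach libraries they took 0.14% to 0.22%. These genes were chosen by their skin and stomach values, and the source of the low values was not tested.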
